A study of Glycine max with 12 samples.

Results

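In soybean (Glycine max) plants that overexpress the zinc finger gene GmZF351, 87 of 43517 listed genes stood at least 2-fold above the control in the leaf and in the root at once. These members were selected on measured values. For each tissue the ratio of mean CPM (counts scaled to the column total of each library, with 0.1 added to both means) was taken as overexpressor over control and divided by the median ratio of well-measured genes. A member needed a ratio of at least 2 in both tissues and an overexpressor mean of at least 1 CPM in both. GmZF351 itself and Glyma.10G221500, the GIGANTEA gene at maturity locus E2, were left out by the rule. The ratios of overexpressor to control are therefore the choice itself, and they are given as a description with no test resting on them.

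The plants came from transgenic line OE-34 and from the cultivar Jack, which served as control, all grown in pots and harvested at the V1 stage with the first trifoliate leaf open. The 12 libraries form 4 groups of 3 biological repeats, called OE leaf, OE root, WT leaf and WT root, where OE carries the GmZF351 transgene and WT is Jack. The promoter of the transgene is not given in the labels, and all OE plants belong to this single line. Nothing says whether a repeat was 1 plant or a pool, and p-values cover only how far these particular samples lie apart. In such bulk tissue, fewer cells that transcribe a gene and less RNA per cell cannot be told apart.

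CCCH zinc finger proteins carry a fold in which cysteines and a histidine hold a zinc ion, and members of the family act on DNA or RNA. GmZF351 is known as a regulator that raises oil in soybean seed. The soybean genome has undergone repeated duplication, and related genes often sit side by side in tandem groups. Locus names give the chromosome first and then a number that grows along it, so that Glyma.08G317400 lies on chromosome 8 close to Glyma.08G317700. No table used here pairs these names with a gene product, so the members are described by position, structure and level, without a role.

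Libraries held 16885874 to 19041634 counts. GmZF351 had 110470 counts in the OE leaf libraries and 1 in WT leaf, and 99755 in OE root and 4 in WT root, as labelled. Levels from here on are CPM on library sizes scaled by TMM (trimmed mean of M-values), the scale of the tests, and are compared between genes only per kb of exon. The Rubisco activase gene RCA11 averaged 15310 and 25970 CPM in OE and WT leaf and 2.805 and 3.269 CPM in OE and WT root. The Nod factor receptor gene NFR5A had 0 counts in the 6 leaf libraries and 22.91 to 31.91 CPM in the root groups.

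Of the 26280 genes that met the level floor, 1162 reached the ratio in leaf and 365 in root, and 87 reached it in both. Most members sat close to the threshold. The smaller of the 2 ratios was under 2.5 for 60 members and at least 3 for 18, and it was at least 10 for 6. The median ratio was 2.99 in leaf, with a range of 2.006 to 63.8, and 2.40 in root, with a range of 2.001 to 69.2. Root gave the smaller ratio for 59 members. Just inside the threshold stood Glyma.02G309300 with ratios of 11.89 in leaf and 2.001 in root, Glyma.17G048300 with 3.105 and 2.003, and Glyma.02G025000 with 2.006 and 2.213. Just outside stood Glyma.08G322100 with 3.77 and 1.998, Glyma.04G222500 with 1.995 and 2.681, and Glyma.03G048600 with 2.161 and 1.993. Between 1.9 and 2 lay 23 further genes that met the floor, and between 2 and 2.1 lay 29 members.

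**Figure D1:**
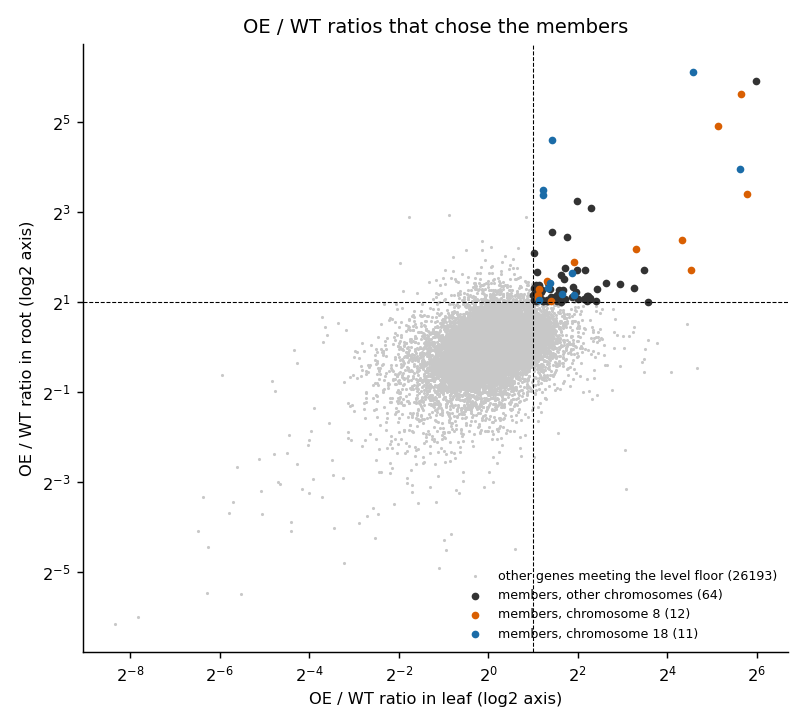
Each point is a gene that met the level floor of the rule, placed by its OE over WT ratio in leaf (x, log2 axis) and in root (y, log2 axis), with dashed lines at 2. The 87 members fill the upper right corner, where most lie near the lines and the 6 with both ratios of at least 10 lie far out, 5 of them on chromosomes 8 and 18.

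As a set the members were scarce transcripts. The WT means are the denominators of the rule's ratios, which favours low WT levels, so the levels given here are a description. In leaf their median level was 4.17 CPM per kb of exon under overexpression and 1.30 in the control, where the genes meeting the floor had medians of 6.61 and 6.60. In root it was 2.46 and 0.912 CPM per kb, where those genes had 5.88 and 6.0. Together they took 0.1813% to 0.1887% of the counts of an OE leaf library and 0.0424% to 0.0487% of a WT leaf library. For root libraries the shares were 0.2494% to 0.2548% (OE) and 0.0936% to 0.1045% (WT). In WT leaf 32 members averaged under 1 CPM, and in WT root 37 did. The control means thus rest on few counts, and 20 members had 20 counts or fewer over the 3 WT leaf libraries and 10 members over the WT root libraries. The median coefficient of variation between repeats was 16.3% in OE leaf and 11.2% in OE root, and 30.6% in WT leaf and 24.7% in WT root.

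All 87 members passed the filter on low counts, in part through the OE libraries that chose them. edgeR called 84 members higher in OE leaf, where 18.3% of all genes tested were called higher, and 83 higher in OE root, against 12%. It called no member lower, against 22.1% of all genes tested in leaf and 18.1% in root. Since the rule used these contrasts, the counts say nothing further about the members. In leaf, every OE library lay above every WT library for 83 members (22.2% of all genes tested), and in root for 83 (19.5%). The exceptions in leaf were Glyma.05G092800, Glyma.02G307500, Glyma.06G099600 and Glyma.15G000100, and in root Glyma.16G072100, Glyma.10G276800, Glyma.17G048300 and again Glyma.15G000100, all named after their values were seen. Glyma.15G000100 overlapped in both tissues. It had 15, 17 and 24 counts in OE leaf and 1, 0 and 13 in WT leaf, and 134, 63 and 42 in OE root and 23, 21 and 60 in WT root.

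**Figure D2:**
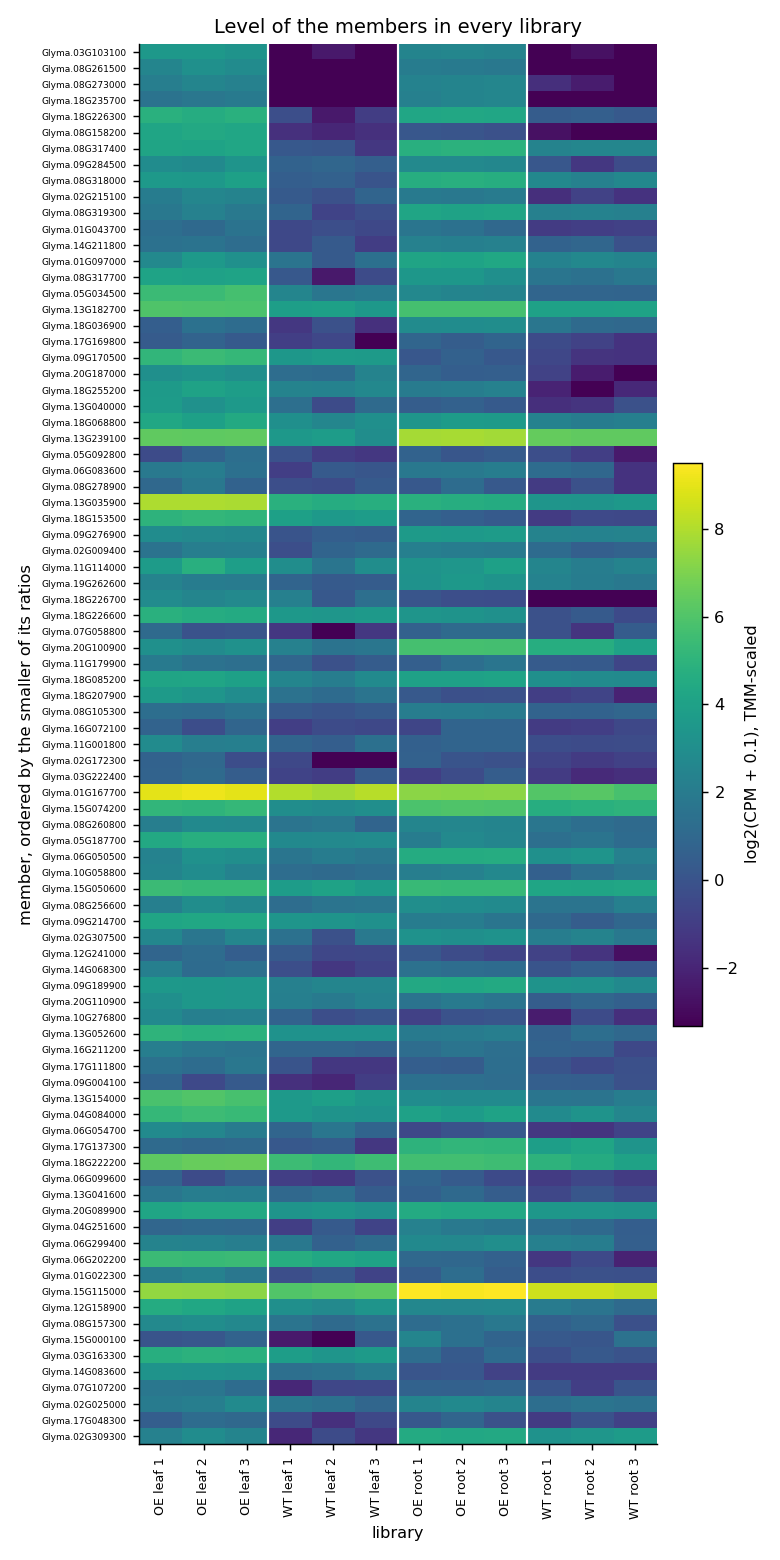
Rows are the 87 members ordered by the smaller of their ratios, columns are the 12 libraries, and colour is log2(CPM + 0.1) on TMM-scaled library sizes. The top rows go from dark in WT to clearly measured in OE in both tissues, and most rows below change by a small step between OE and WT.

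The control libraries of a tissue were not alike. WT root replicate 3 was the lowest of the WT root libraries for 41 members (47.1%), as it was for 37.3% of all genes tested. Without this library the rule picked 71 genes, and 22 of the 87 members were no longer among them. In WT leaf, replicate 2 was the lowest library for 46 members (52.9%, against 36.3% of genes tested). The rule divides by the WT means and so favours genes with a low WT library, so these shares depend on the choice. When each library was left out in turn, 39 of the 87 members stayed in every time, including 25 of the 27 whose smaller ratio was at least 2.5. The other 2 of these 27 were Glyma.05G092800, lost without OE leaf replicate 3 or WT root replicate 3, and Glyma.06G083600, lost without WT root replicate 3.

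The members with the highest ratios were nearly silent in the control. Glyma.03G103100 (chromosome 3, 29645105 to 29646139, plus strand, 2 exons) had 189, 185 and 143 counts in OE leaf and 0, 1 and 0 in WT leaf. In OE root it had 130, 143 and 133 counts, against 0, 1 and 0 in WT root. The levels were 10.72 ± 1.04 CPM in OE leaf and 5.517 ± 0.278 in OE root (SD, n = 3). With 1 control count in each tissue, the leaf ratio was 392 (70.1 to 15500, 95% exact interval on the counts). The root ratio was 356 (63.6 to 14100). These intervals cover counting error only.

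Both Glyma.08G261500 and Glyma.18G235700 had no count in any of the 6 WT libraries. Glyma.08G261500 (chromosome 8, 25674085 to 25676624, plus strand, 3 exons) had 92, 142 and 108 counts in OE leaf and 97, 90 and 87 in OE root. Against a floor of 3 counts per control library, it was at least 28.9-fold higher in OE leaf and at least 26.7-fold higher in OE root. Glyma.18G235700 (chromosome 18, 52422195 to 52422824, minus strand, 3 exons) had 47, 54 and 58 counts in OE leaf and 115, 133 and 145 in OE root, at least 13.5-fold and at least 38.3-fold higher. Its levels were 3.327 ± 0.519 CPM in OE leaf and 5.331 ± 0.493 in OE root, so the gene was scarce but present in each OE library.

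Glyma.08G273000 (chromosome 8, 35761249 to 35768488, plus strand, 8 exons) was silent in WT leaf and barely detected in WT root. It had 72, 91 and 74 counts in OE leaf against 0 in each WT leaf library, at least 20-fold higher. In OE root it had 121, 135 and 146 counts against 5, 2 and 0 in WT root, a ratio of 50.4 with a counting interval of 24.2 to 126. The OE levels of the tissues were close, at 4.936 ± 0.606 CPM in leaf and 5.455 ± 0.384 in root.

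Glyma.08G158200 (chromosome 8, 12254113 to 12256668, plus strand, 2 exons) was mainly a leaf transcript. Counts were 308, 347 and 289 in OE leaf and 3, 2 and 3 in WT leaf, a ratio of 89.5 with a counting interval of 45.2 to 208. In root it had 24, 23 and 20 counts in OE and 1, 0 and 0 in WT, and that ratio of 58.8 spans 10.2 to 2360. The rule's own ratios for such genes are lower, 55.55 and 10.55 here, because 0.1 CPM was added to each mean.

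**Figure D3:**
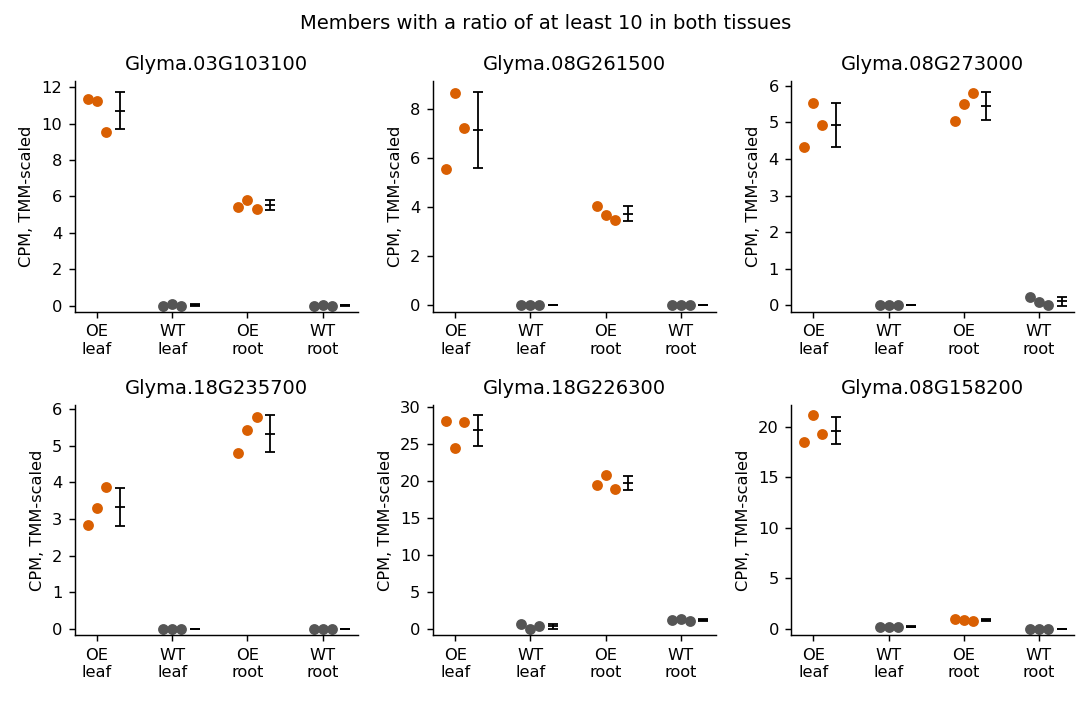
Each panel is one of the 6 members whose ratio was at least 10 in both tissues, with CPM on TMM-scaled library sizes for the 3 libraries of each group (points, OE in orange and WT in grey) and the mean with SD beside them. No WT point exceeds 1.366 CPM and all OE points lie above the WT points of their tissue; in Glyma.08G158200 the OE root level is far below the OE leaf level.

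Some members were neighbours. Listed in order along the chromosomes, 2 groups of 3 members had at most 2 other genes between them, 1 on chromosome 8 and 1 on chromosome 18. The chromosome 8 group spans 45.58 kb (43698290 to 43743864) and holds Glyma.08G317400, Glyma.08G317700 and Glyma.08G318000, all on the minus strand. Glyma.08G317400 (2 exons) stood at 17.93, 17.55 and 18.92 CPM in OE leaf against 1.073, 0.9847 and 0.3295 in WT leaf. In root it stood at 27.29, 29.84 and 29.23 CPM against 5.171, 5.935 and 5.747, so the control transcribed it at a low level in root and hardly in leaf. Glyma.08G317700 (2 exons) stood at 17.21, 15.96 and 17.52 CPM in OE leaf against 1.073, 0.08206 and 0.6591, and in root at 10.85, 11.09 and 8.322 against 3.056, 2.685 and 3.484. Glyma.08G318000 (7 exons) stood at 12.16, 11.39 and 15.59 CPM in OE leaf against 1.32, 1.477 and 0.9062, and in root at 25.75, 26.9 and 25.52 against 6.206, 4.804 and 6.29. In each of the 3 genes no OE library overlapped a WT library of its tissue. The same held for 83 of the 87 members in leaf and 83 in root, against 22.2% and 19.5% of all genes tested.

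The nearest tested genes beside this group did not share its OE over WT ratios. The 2 listed genes inside it, Glyma.08G317800 and Glyma.08G317900, had too few counts to be tested. Its next tested neighbours, Glyma.08G317200 and Glyma.08G318100, had leaf ratios of 1.03 and 1.18 and root ratios of 1.40 and 0.936. A further member, Glyma.08G319300 (43848705 to 43852703, minus strand, 2 exons), starts 150.4 kb from the start of Glyma.08G317400, with 11 listed genes between it and the group. It stood at 3.43, 4.813 and 3.598 CPM in OE leaf against 1.65, 0.4923 and 0.7415 in WT leaf, and at 18.28, 16.55 and 18.2 in OE root against 4.748, 4.993 and 4.706 in WT root. Glyma.08G322100, the gene nearest the threshold from outside, lies on the same arm at 383.8 kb.

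The chromosome 18 group spans 109.2 kb (51471540 to 51580722) and holds Glyma.18G226300, Glyma.18G226600 and Glyma.18G226700, the last of which left the list without WT leaf replicate 2 or OE root replicate 1. Glyma.18G226300 (plus strand, 14 exons, 9435 bp of exon, the longest member) stood at 28.1, 24.49 and 27.92 CPM in OE leaf against 0.7425, 0.08206 and 0.4119 in WT leaf. In root it stood at 19.53, 20.79 and 18.91 CPM against 1.222, 1.366 and 1.086. The other members of the group had the larger ratio in root. Glyma.18G226600 (minus strand, 3 exons) stood at 28.22, 24.98 and 22.79 CPM in OE leaf against 11.39, 10.59 and 11.62, and in root at 10.22, 9.457 and 8.481 against 0.7992, 1.13 and 0.6335. Glyma.18G226700 (plus strand, 2 exons) had 119, 92 and 97 counts in OE leaf against 57, 13 and 30, and in root 23, 18 and 18 against 0 in each WT library, at least 5.77-fold higher.

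The 2 genes between these members were far higher in OE leaf as well, without reaching the ratio in root. Glyma.18G226400 averaged 2.562 CPM in OE leaf and 0.08242 in WT leaf, but 79.35 and 73.05 in OE and WT root, with ratios of 12 and 1.10. Glyma.18G226500 averaged 35.3 and 1.539 CPM in leaf and 445.3 and 317.4 in root, with ratios of 21.7 and 1.42. Glyma.18G226900, the next gene on the other side, was lower in OE leaf with 1.981 against 11.83 CPM. Over this stretch of consecutive listed genes OE and WT leaf differed in both directions.

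**Figure D4:**
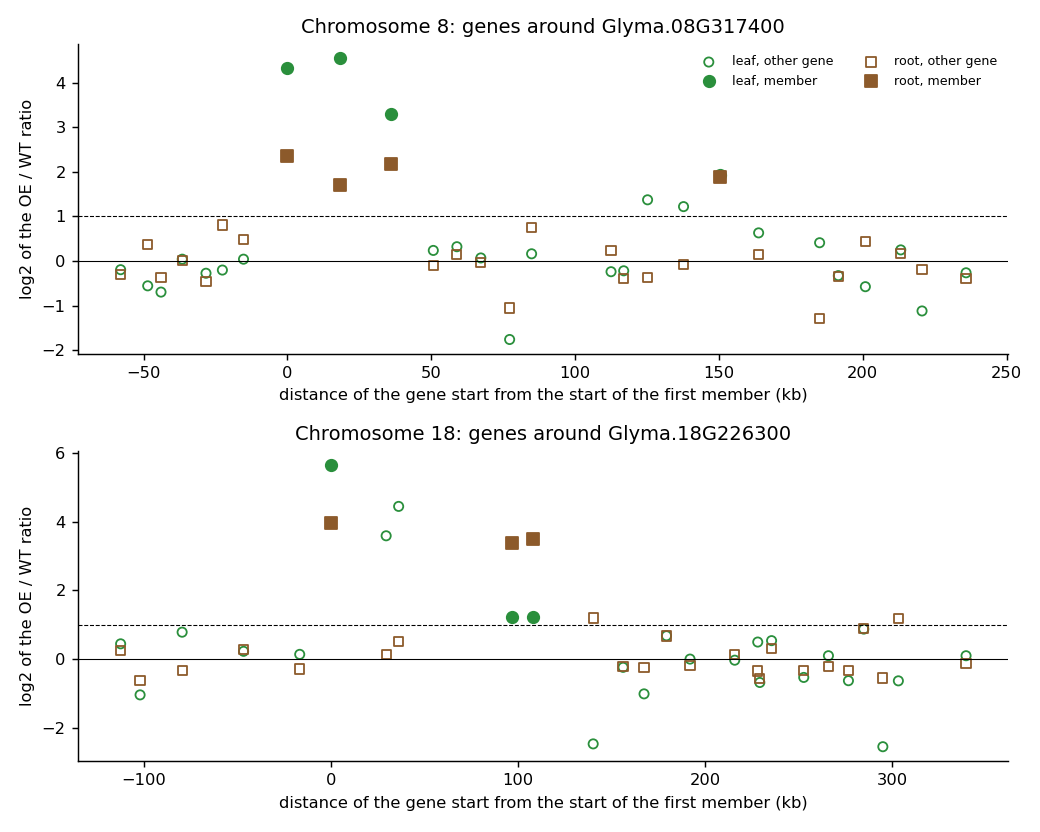
Points are tested genes around the member groups on chromosome 8 (top) and chromosome 18 (bottom), placed by the distance of their start from that of the first member (x, kb) and by log2 of the OE over WT ratio (y), for leaf (circles) and root (squares), with members filled. On chromosome 8 the only other points above the dashed line at 2-fold are the leaf values of Glyma.08G319100 and Glyma.08G319200, and on chromosome 18 they are the leaf values of the 2 genes between the members and the root values of Glyma.18G226900 and Glyma.18G228700.

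Over all members, calls among their neighbours were about as frequent as among all genes. Of 684 tested genes within 5 places of a member, 19.6% were called higher and 20.5% lower in OE leaf, against 18.3% and 22.1% of all genes tested (edgeR adjusted p under 0.05). In root the shares were 13.7% higher and 19.9% lower, against 12% and 18.1%. None of the members lay within 20 listed genes of GmZF351 on chromosome 6. That is the place of the plant's own gene, and where the transgene sits in this line was not examined.

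Chromosomes 8 and 18 held 23 members (26.4%), where they hold 11.9% of the genes that met the floor. Among the 18 members with a smaller ratio of at least 3 they held 10, and among the other 69 they held 13. Every chromosome had a member, from 1 on chromosome 19 to 12 on chromosome 8. These shares are descriptions, since chromosomes 8 and 18 were picked after the counts were seen, as those with the most members, and neighbours are not independent.

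The 5 members with the highest OE level per kb had a smaller ratio of 2.032 to 2.612. Per kb of exon, the highest OE level belonged to Glyma.15G115000 (chromosome 15, 9045318 to 9047577, plus strand, 2 exons). Its CPM values were 716, 663.6 and 730.5 in OE root and 369.1, 365.3 and 320.5 in WT root. In leaf they were 173.1, 164.2 and 157.2 against 65.09, 74.42 and 80.57. Glyma.01G167700 (chromosome 1, 50530240 to 50531768, minus strand, 2 exons) had the reverse order of tissues, with 514.6, 584.3 and 499.6 CPM in OE leaf against 264.3, 217.5 and 277.7, and 158.1, 149.1 and 154.7 in OE root against 67.09, 71.31 and 54.89. For both genes no OE library fell as low as a WT library of its tissue. This was so for 83 of the 87 members in leaf and 83 in root, against 22.2% and 19.5% of all genes tested. Glyma.15G115000 left the list without OE root replicate 3 or WT root replicate 3.

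Glyma.13G035900 (chromosome 13, 11177502 to 11182100, plus strand, 4 exons) combined a high level with a wide gap in leaf. It stood at 241, 247.3 and 237.1 CPM in OE leaf against 28.13, 24.29 and 25.95, and at 27.92, 25.44 and 23.33 in OE root against 10.15, 9.75 and 11.31. Glyma.13G239100 (chromosome 13, 34957148 to 34964627, plus strand, 9 exons) was a root transcript by level, with 217.8, 229 and 213.3 CPM in OE root against 88.67, 83.8 and 84.03. In leaf it stood at 83.64, 79.93 and 83.55 CPM against 11.47, 13.7 and 7.744. On the TMM scale OE leaf thus reached about the level of WT root, with 3956 counts in OE leaf and 5522 in WT root. Glyma.18G222200 (chromosome 18, 50923596 to 50925562, minus strand, 1 exon) stood at 80.34, 91.93 and 93.94 CPM in OE leaf against 43.89, 35.94 and 45.31. Its WT root libraries spread from 16.61 in replicate 3 to 31.64 in replicate 1, below the 46.15 to 49.73 of OE root, and it left the list without WT root replicate 3.

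The contrast of WT root with WT leaf places the members in the plant without the transgene. The rule did not use this contrast, but both WT means entered its ratios as denominators, so its p-values and shares are not independent of the choice. On TMM-scaled libraries the members were divided between the tissues. edgeR called 28 members higher in WT root, against 41.8% of all genes tested, and 33 higher in WT leaf, against 35.9%, which is 32.2% and 37.9% of the members. The median log2 fold change (root over leaf) was -0.02 for the members and 0.13 for all genes tested. At least 4-fold differences were called for 14 members in each direction. That share was not computed over all genes tested, so nothing is read from it. The median absolute log2 fold change was 1.36 for the members and 1.14 for all genes tested. The level floor in OE of both tissues bars genes confined to 1 tissue in OE, which limits how far this contrast could go.

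Root-weighted members were led by Glyma.02G309300 (chromosome 2, 48287101 to 48289732, plus strand, 2 exons), at 9.168, 10.79 and 13.08 CPM in WT root and 0.165, 0.6564 and 0.3295 in WT leaf (log2 4.82, SE 0.293, edgeR adjusted p = 2.76e-16). Glyma.17G137300 (chromosome 17, 11083176 to 11085418, minus strand, 3 exons) followed with 14.34, 18.51 and 9.819 CPM against 1.073, 1.231 and 0.3295 (log2 4.01, SE 0.275, edgeR adjusted p = 1.95e-13). Glyma.13G239100, described above, had a log2 fold change of 2.96 (SE 0.116, edgeR adjusted p = 1.25e-21). Glyma.08G273000 was also called, on 5, 2 and 0 counts in WT root and none in WT leaf (edgeR adjusted p = 0.0384). That call ended without WT leaf replicate 1, 2 or 3 (edgeR adjusted p = 0.079, 0.0781 and 0.0803) and without WT root replicate 1 (0.175), and its fold cannot be estimated.

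Leaf-weighted members included Glyma.06G202200 (chromosome 6, 18712866 to 18716868, plus strand, 6 exons), at 25.41, 20.27 and 17.38 CPM in WT leaf and 0.3291, 0.6123 and 0.1357 in WT root (log2 -5.86, SE 0.236, edgeR adjusted p = 2.8e-21). Glyma.18G255200 (chromosome 18, 54160047 to 54161267, minus strand, 3 exons) stood at 5.198, 5.005 and 6.179 CPM in WT leaf and had 3, 0 and 4 counts in WT root (log2 -5.57, SE 0.372, edgeR adjusted p = 3.34e-15). Glyma.09G170500 (chromosome 9, 39547233 to 39548348, plus strand, 1 exon) stood at 11.06, 12.88 and 12.44 CPM against 0.5642, 0.2826 and 0.2715 (log2 -5.00, SE 0.234, edgeR adjusted p = 1.85e-19). It kept this order in OE, with 34.24, 42.52 and 37.31 CPM in leaf and 1.002, 1.467 and 1.075 in root. Glyma.18G226700, with 57, 13 and 30 counts in WT leaf and 0 in WT root, was called as well (edgeR adjusted p = 3.64e-10), with no fold that can be estimated.

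By TMM-scaled means, the tissue with the higher level was the same in OE and WT for all but 13 members, of which 6 had a called difference in WT. Those 6, named after their values were seen, were Glyma.18G226300, Glyma.08G317700, Glyma.13G182700, Glyma.18G085200, Glyma.15G050600 and Glyma.14G068300. Glyma.18G226300, for example, averaged 1.225 CPM in WT root and 0.4122 in WT leaf, but 19.74 in OE root and 26.84 in OE leaf. For Glyma.18G085200, Glyma.15G050600 and Glyma.14G068300 the OE leaf libraries overlapped the OE root libraries, so their order in OE rests on the means alone. OE root against OE leaf was not tested. The share of all genes whose higher tissue differed between genotypes was not computed, so nothing is read from the 13 or the 6.

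Whether the gap between OE and WT had the same size in both tissues was described by the difference of the log2 effects, root minus leaf. This difference is made of the same ratios that chose the members, each at least 2, so its values are a description and no p-value is given. The threshold of edgeR was passed with the larger effect in leaf by 15 members (17.2%), where 11.2% of all genes tested passed, and with the larger effect in root by 5 (5.75%), where 11.6% did. All genes tested also hold genes that fell, so nothing is read from these shares. For 67 of 87 members the threshold was not passed, which does not show that the effects were equal.

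Among members with the larger effect in leaf, Glyma.08G317700 on chromosome 8 had the most negative difference, at -3.08 (SE 0.38), and Glyma.02G309300 was next with -2.96 (SE 0.388). The neighbours Glyma.08G317400 and Glyma.08G318000 had -2.14 (SE 0.284) and -1.22 (SE 0.275). Glyma.08G319300, the more distant member, had -0.16 (SE 0.342). Glyma.02G309300 stood at 4.934, 7.493 and 5.53 CPM in OE leaf against the WT leaf values above, and at 23.16, 20.99 and 21.26 in OE root. Glyma.18G226300 had -2.0 (SE 0.403). The abundant Glyma.13G035900 and Glyma.13G239100 had -1.92 (SE 0.133) and -1.54 (SE 0.15).

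By the sign of the difference alone, 29 members had the larger effect in root. The 5 of them that passed the threshold were Glyma.18G226700, Glyma.18G255200, Glyma.18G226600, Glyma.02G215100 and Glyma.06G202200. Of these 5, 3 lie on chromosome 18, which holds 11 of the 87 members. Glyma.18G226600 and Glyma.18G226700 belong to the same group of neighbours, so nothing is read from this count. Glyma.18G255200 had a difference of 3.85 (SE 0.469), with 12.58, 16.69 and 13.93 CPM in OE leaf and 3.965, 4.28 and 4.818 in OE root. Glyma.18G226600 had 2.27 (SE 0.251). For Glyma.18G226700, with WT root at 0, the size of the difference cannot be estimated.

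The 2 others rest on few control counts. Glyma.02G215100 (chromosome 2, 40116603 to 40118606, minus strand, 2 exons) had 67, 96 and 80 counts in OE leaf and 14, 10 and 20 in WT leaf, and 90, 84 and 98 in OE root and 5, 10 and 6 in WT root (difference 1.42, SE 0.485). It no longer passed the threshold when any 1 of 6 libraries was left out, namely OE leaf replicate 1, WT leaf replicate 3, and replicates 1 and 3 of OE root and of WT root. Glyma.06G202200, with 46, 46 and 37 counts in OE root and 7, 13 and 3 in WT root, had a difference of 1.30 (SE 0.368), which became 0.91 and no longer passed without WT root replicate 3.

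For some members with high ratios in both tissues the difference did not pass the threshold. Glyma.09G284500 (chromosome 9, 49968138 to 49971046, plus strand, 2 exons) stood at 7.402, 6.823 and 9.994 CPM in OE leaf against 1.568, 1.805 and 1.401, and at 6.427, 6.4 and 6.092 in OE root against 1.034, 0.3297 and 0.6787. Glyma.01G043700 (chromosome 1, 4755228 to 4758910, minus strand, 7 exons) stood at 2.407, 2.01 and 2.865 CPM in OE leaf against 0.5775, 0.7385 and 0.5767, and at 3.088, 2.69 and 1.911 in OE root against 0.3761, 0.4239 and 0.4525. Their differences were 0.86 (SE 0.402) and 0.67 (SE 0.55). Others passed it, among them Glyma.05G034500 (difference -1.75, SE 0.265), named after its values were seen, with ratios of 11.11 in leaf and 3.246 in root. It stood at 42.42, 42.71 and 53.43 CPM in OE leaf against 5.693, 3.2 and 3.625, and at 6.26, 5.503 and 5.256 in OE root against 1.739, 1.743 and 1.674.

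The rule did not use gene structure, and many members had few exons. Of 87 members, 24 (27.6%) had 1 exon and 22 (25.3%) had 2, and the median was 2 exons. Among the 26280 genes that met the floor the shares were 8.8% and 11.8%, with a median of 6 exons. At least 5 exons were found in 26.4% of members and 59.6% of these genes. The median exon length was 1640 bp against 1979 bp, with a range among members of 353 bp (Glyma.03G103100) to 9435 bp (Glyma.18G226300). Among genes under 10 CPM in both OE leaf and OE root, exon numbers lay closer. There the median was 2 exons for 45 members and 4 for 6694 genes that met the floor, and 60.0% and 28.2% had 1 or 2 exons.

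Few exons were also frequent in other sets. Genes that reached the ratio in root but not in leaf had 1 or 2 exons in 48.9% of 278 cases, close to the 52.9% of members. Those that reached it in leaf but not in root had them in 33.0% of 1075 cases, and genes that fell to a ratio of at most 0.5 in both tissues in 27.7% of 466. None of the 87 members overlapped a listed gene on the other strand, which 3.46% of genes meeting the floor did.

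**Figure D5:**
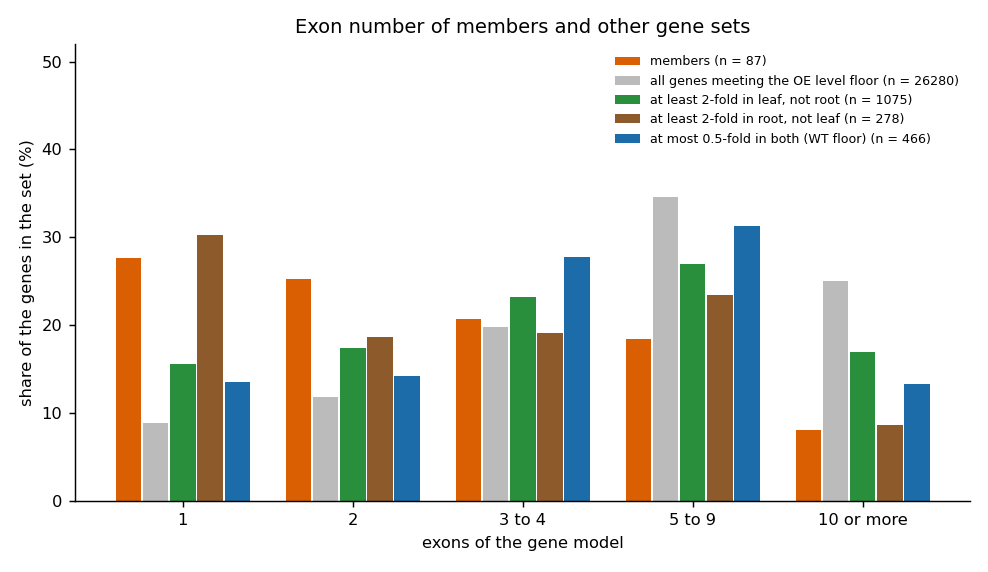
Bars give the share of genes (y, %) by number of exons (x) for the members, all genes that met the level floor, genes at least 2-fold up in leaf or in root alone, and genes at most 0.5-fold in both tissues. Members and root-only genes have their highest bar at 1 exon, at 27.6% and 30.2%, where all genes meeting the floor have theirs at 5 to 9 exons.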

How the data were processed

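Per the labels' protocols, total RNA came from a TRIzol extraction and libraries followed Illumina's standard procedure. The deposited table holds raw counts, 1 row per gene. The authors ran featureCounts v2.0.1 on read pairs over annotated exons, per the file headers. Coordinates are those of its annotation, Wm82.a2.v1. Its recorded command sets no strand, multi-mapping or multi-overlap option, so values of near-identical tandem copies are uncertain. No source used here names the aligner.

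Members, gene lists and tests were chosen with earlier results of these data known. The rule divided ratios by medians of 1.257 in leaf (18576 genes with at least 5 CPM in both genotypes) and 1.053 in root (22822 genes). Counts were then fitted in R 4.3.3 with edgeR 4.0.16 (filterByExpr, TMM, robust quasi-likelihood, 1 coefficient per group, 35968 genes, 8 residual degrees of freedom), with p-values adjusted by Benjamini-Hochberg across that whole set and a threshold of 0.05. TMM factors ran from 0.665 to 0.676 in WT leaf and from 0.862 to 0.889 in OE leaf. They ran from 1.25 to 1.28 in WT root and from 1.34 to 1.35 in OE root. Levels are therefore relative to the bulk of genes, and comparisons of root with leaf depend on this scaling. Standard errors are the log2 fold change over the root of its F statistic. The fit was checked on simulated counts. DESeq2 1.42.0 and the other alternatives are reported in the closing section.

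Named genes were the members with the 12 largest smaller ratios, the 5 highest OE levels per kb, the 4 most extreme in each direction for either contrast, those with 0 counts in WT of a tissue, runs of neighbours, and the 3 on either side of the threshold. The RefSeq symbol table (assembly Glycine_max_v4.0) matched 0 of 43517 identifiers, so groups by product and promoters were not analysed here. Repeats differed by more than sampling noise (chi-square per gene 2.26 to 9.87, the highest for WT root replicate 3 against replicate 1). Depth sets a floor of 0.119 to 0.248 CPM for a count of 0 (3 counts).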

Additional observations from a re-analysis of the deposited data

Results flagged for a closer look

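For 12 named members the fitted root minus leaf difference of the overexpression effect lay past edgeR's threshold (adjusted p under 0.05), used here only to list them. The difference is made of the ratios that chose the members, so these values are a description. Root minus leaf, on the log2 scale, the differences with the larger effect in leaf were -3.08 for Glyma.08G317700, -2.96 for Glyma.02G309300, -2.14 for Glyma.08G317400, -2.0 for Glyma.18G226300, -1.92 for Glyma.13G035900, -1.54 for Glyma.13G239100 and -1.22 for Glyma.08G318000. Those with the larger effect in root were 3.85 for Glyma.18G255200, 2.27 for Glyma.18G226600, 1.42 for Glyma.02G215100 and 1.30 for Glyma.06G202200. For Glyma.18G226700 the fitted value was 5.69, which depends on the prior count because WT root was at 0. Of all 20 members past the threshold, 7 lie on chromosomes 8 and 18, as do 23 of the 87 members. Nothing is read from this count.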

How the results depend on the processing

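Membership depended on the settings of the rule. It fell to 31 genes with a pseudocount of 1 CPM and to 37 with an OE mean of at least 5 CPM, and rose to 162 when ratios were not divided by the median. On TMM-scaled library sizes 66 genes met the rule, all of them among the 87. Leaving out 1 library at a time gave 71 to 97 genes. The members called for the root minus leaf difference numbered 20, 17 to 22 without 1 library, 19 with DESeq2 size factors, 20 without a low-count filter, 21 with DESeq2's own test and 19 with the replicate block, whose numbers do not pair the libraries (correlations of deviations of -0.421 to 0.383). Those larger in root ranged from 3 to 6 without 1 library, the 3 being without WT root replicate 3. Members called between WT root and WT leaf numbered 61, 55 to 61 without 1 library and 59 to 60 under the other alternatives, 60 with the replicate block. None of the differences of the 20 members, nor of the 8 WT root against WT leaf values, that were recomputed reversed. Few control counts limit the ratios of members under 1 CPM in WT.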
